A study of Bos grunniens with 36 samples.

Results

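The genes followed here are those of the proteasome, the protease complex that degrades ubiquitin-tagged proteins, in the mammary gland of the yak (Bos grunniens) from late pregnancy through lactation. Members were the genes of the deposited value table whose symbol starts with PSMA, PSMB, PSMC, PSMD, PSME, PSMF or PSMG and a number. This gave 48 of 14196 gene symbols, measured by 96 of 34997 probes, and all 48 passed the filter on dim probes. They comprise 7 alpha and 7 standard beta subunits of the 20S core, the 3 inducible catalytic subunits of the immunoproteasome, the thymus type subunit PSMB11, 6 ATPases and 11 non-ATPase subunits of the 19S cap, 4 activators, the inhibitor PSMF1 and 7 assembly chaperones. The remaining symbol, PSMC3IP, matches the letters but encodes a partner protein of a cap ATPase in meiotic recombination, not a subunit. It is included in the counts over 48 members and in no group of subunits. For each gene the probe with the highest mean over the 36 arrays was used; 17 genes have 1 probe and 31 have more.

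The 20S core is a barrel of stacked rings. Its alpha subunits form the gate, and its beta subunits line the chamber, where PSMB5, PSMB6 and PSMB7 hold the active sites. Interferon-gamma induces PSMB8, PSMB9 and PSMB10, which take the places of PSMB5, PSMB6 and PSMB7 in newly built particles, and the resulting immunoproteasome supplies peptides to MHC class I molecules. The 19S cap binds ubiquitin chains, removes them and unfolds the substrate with its ring of ATPases. In the lactating gland the proteasome works beside a secretory pathway that makes large amounts of milk protein.

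The tissue came from the rear of the udder of 4 female yaks, biopsied on the left and on the right in turn at 9 times, with fat and connective tissue dissected away. Days -30 and -15 precede calving, day +1 follows it, and days +15, +30 and +60 are followed by the later lactation days +120, +180 and +240. Each biopsy gave 1 single-colour array of a cattle design, so that there are 36 arrays, 4 a day, and the same animal number is the same yak at each day. No treatment was given, day -30 is the reference, and each comparison with it shares the same 4 arrays. Values are log2 signals on which 0 is the 75th percentile of the array. A change is the later day's mean log2 value less that of the earlier day, so that 1 is a 2-fold change, and it is given with its standard error (SE) where the text turns on it. A gene is called changed where the adjusted p (limma, Benjamini-Hochberg over 20641 features) is under 0.05.

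The deposited files hold 2 records of the day, and these contradict each other for 27 of the 36 arrays. The days used here are those of the value table. By that record each slide holds the 4 arrays of 1 day, so that day and slide cannot be told apart. Array brightness, the signal at the 75th percentile, lay between 1029 and 6450 intensity units, and 68.6% to 89.3% of the spots lay well above background. At days +15, +60, +180 and +240 even the brightest array lay below the dimmest one of day -30. Animal 4 stood apart at day +120 and day +180: its mean over 6 milk protein genes was 0.04 and -0.08, where the other 34 arrays lay between 3.54 and 8.50. The mean over 4 other genes of secretory epithelium was 2.91 and 2.79 on these 2 arrays, within the range of the others (2.36 to 4.56). All members but PSMB11 lay above background on all 36 arrays and precision is limited by the 4 arrays a day.

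Probes of 5 of the 6 catalytic subunits follow, since these genes are related to each other. The probe of PSMB5 is not shown. Each has 60 bases and is written 5′ to 3′, as in the array's design, and capitals mark the longest run of bases that it shares with the probe named beside it. That run has 5 or 6 bases in each case. Each probe was compared with another probe and not with the whole transcript of the related gene, so that binding to that transcript was not tested. The positions are those of the cattle assembly UMD 3.1.
PSMB8, chr23:7113569-7113866, minus strand, against PSMB9: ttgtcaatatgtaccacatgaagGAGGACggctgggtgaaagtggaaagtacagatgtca
PSMB9, chr23:7132092-7132151, plus strand, against PSMB8: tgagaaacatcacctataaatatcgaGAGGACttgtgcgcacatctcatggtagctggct
PSMB10, chr18:35542097-35542267, minus strand, against PSMB7: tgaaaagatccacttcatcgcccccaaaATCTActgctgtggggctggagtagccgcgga
PSMB6, chr19:27198664-27198723, minus strand, against PSMB9: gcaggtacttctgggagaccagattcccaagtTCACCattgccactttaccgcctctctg
PSMB7, chr11:95431240-95450174, minus strand, against PSMB10: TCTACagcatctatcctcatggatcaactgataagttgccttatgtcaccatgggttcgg
The PSMB8, PSMB10 and PSMB7 probes span 298, 171 and 18935 bases of the genome, more than their own length. The PSMB10 and PSMB6 probes are those whose values are used below. For PSMB8, PSMB9 and PSMB7 the value comes from a brighter probe of the same gene, and the probe shown gives the same direction at the days called: -0.91 for PSMB8 at day +30, -1.15 for PSMB9 at day +120 and 0.81 for PSMB7 at day +60. PSMB8 and PSMB9 lie close together on chromosome 23, in the major histocompatibility complex.

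By the deposited normalization many standard subunits of the core and cap were called higher in lactation than before calving, and the 3 immunoproteasome subunits were called lower. The F test over 9 days called 26 of the 48 members, 54.2%, where it called 42.2% of all features. Against day -30, members were called on these days: 2 at day +1 (6.23% of all features called), 12 at day +15 (17.7%), 5 at day +30 (6.38%), 16 at day +60 (29.2%), 3 at day +120 (3.71%), 10 at day +180 (17.6%) and 8 at day +240 (13.8%). At day -15 limma called 0 members (0.00484% of all features), and 0 had an unadjusted p under 0.05 (1.03% of all features). Most of these shares lie near the background, so that the counts alone set the members little apart.

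The split into higher and lower members depended on the normalization. With the deposited values 20 of the 48 members were called higher on at least 1 day (19.6% of all features) and 5 lower (23.9%), with 0 called both ways and 23 called on no day. With the arrays quantile normalized the split was 5 higher and 15 lower, and with array brightness as a covariate it was 2 higher and 9 lower. The 5 lower ones, PSMB8, PSMB9, PSMB10, the chaperone PSMD9 and PSMC3IP, were called lower in each of these 3 analyses. PSMD11 and PSMD12 were called higher in each. Among the standard subunits called higher with the deposited values, PSMC6 was the other one still called higher with quantile normalization. Of the 56 calls against day -30, 4 changed sign with quantile normalization and 25 were lost at the same sign, and with the covariate 6 changed sign and 34 were lost. Of the same calls 20, 15, 12 and 37 were kept without animals 1, 2, 3 and 4, so that many calls need all 4 animals.

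**Figure D1:**
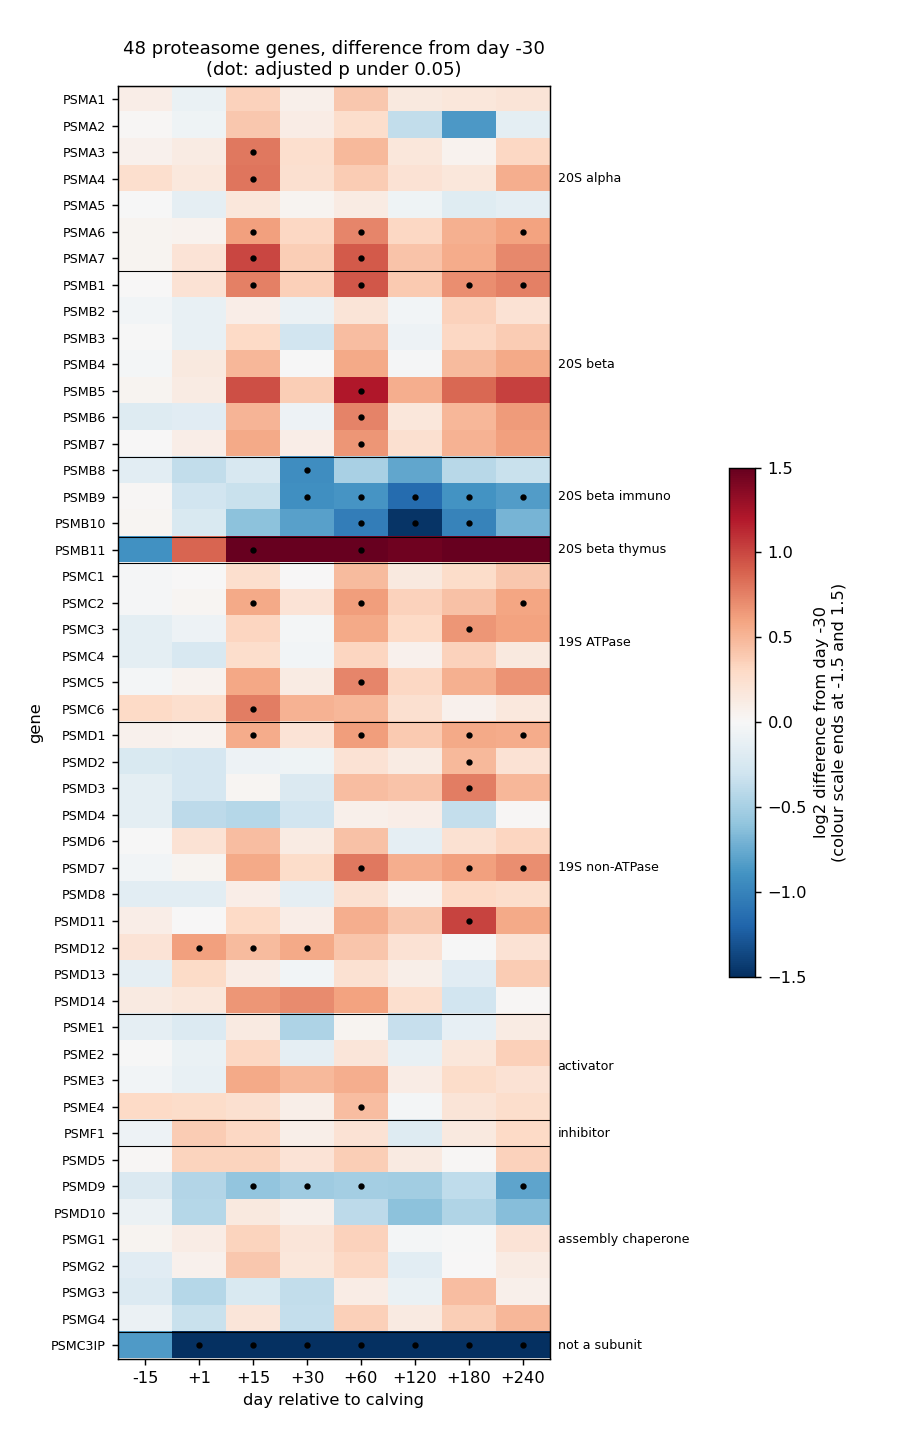
Colour shows the log2 difference of each gene from day -30 (columns: the other 8 days; genes grouped by role), a dot marks an adjusted p under 0.05, and differences beyond -1.5 and 1.5 have the end colours. The standard core and cap genes are mostly red at days +15, +60, +180 and +240 and the 3 immunoproteasome genes are blue from day +1 on.

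All 14 standard core genes had a mean above that of day -30 at day +15 and at day +60, with medians of 0.54 and 0.52, where the median of all features was -0.01 and -0.12. At day +15 the 4 arrays lay all above the 4 of day -30 for 19 of the 48 members (39.6%, against 17.8% of all features), and at day +60 for 20 (41.7%, against 16.2%). At day +30, between those days, the core median was 0.10 and 0 of the 14 were called. This direction rests on the normalization: after quantile normalization the core median was -0.01 at day +15 and -0.08 at day +60, and with the brightness covariate it was -0.10 at both days. In the comparison with day -30, brightness and day cannot be told apart at days +15, +60, +180 and +240. Within a day brightness varied too, and at each day but days -15 and +60 the dimmest array had the highest mean of the 14 core genes. At day +30 this mean was 3.40 on the array of 1402 units and 2.55 on that of 5698 units. The cause of this order was not tested.

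Among the alpha subunits, which form the gated outer rings, PSMA7 changed most. Its 4 values ran from 3.31 to 3.54 at day -30, from 4.13 to 4.83 at day +15 and from 4.16 to 4.55 at day +60. The groups did not overlap, and the differences were 1.00 (SE 0.26, adjusted p 0.0106) and 0.92 (SE 0.26, adjusted p 0.00877) by limma. With the brightness covariate they were 0.10 and -0.02, and with quantile normalization 0.21 and 0.12, and none passed. PSMA6 was called at 3 days, with 0.62 at day +15, 0.73 at day +60 and 0.60 at day +240. With quantile normalization its difference at days +15 and +240 turned just below 0. PSMA3 (0.79) and PSMA4 (0.80) were called at day +15, but the second probe of PSMA4 is poorly correlated with the first (r = 0.312 over 36 arrays). PSMA1, PSMA2 and PSMA5 were called at no day. PSMA2 had the largest negative difference of the group, -0.87 at day +180, which did not pass (adjusted p 0.0626).

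Of the standard beta subunits, PSMB1 gave the most calls. It is a structural member of the beta ring with no active site of its own. Its values were 3.05, 2.87, 2.83 and 2.71 for animals 1 to 4 at day -30 and 3.63, 3.84, 3.81 and 3.89 at day +60. The groups were well separated, with a difference of 0.93 (SE 0.23, adjusted p 0.00388 by limma), which fell short of a call with quantile normalization and with the brightness covariate. PSMB1 was also called at day +15 (0.76), day +180 (0.70) and day +240 (0.75). PSMB2, PSMB3 and PSMB4 were called at no day, though PSMB4 passed the F test (adjusted p 0.0371).

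The 3 constitutive catalytic subunits were each called higher at day +60 and at no other day. PSMB5, the chymotrypsin-like site, had the values 3.21, 2.41, 2.95 and 2.46 for animals 1 to 4 at day -30 and 3.68, 4.05, 3.85 and 4.28 at day +60. All 4 animals were higher, by 1.20 on average (SE 0.37, adjusted p 0.0159 by limma). PSMB6, the caspase-like site, ran from 3.73 to 4.25 at day -30 and from 4.70 to 4.80 at day +60, a difference of 0.74 (SE 0.28, adjusted p 0.0437). PSMB7, the trypsin-like site, ran from 3.01 to 3.27 and from 3.71 to 3.91, a difference of 0.66 (SE 0.23, adjusted p 0.035). At day +120 and day +180 the 3 genes spread widely, and animal 4 held the lowest value of each. With the brightness covariate the 3 differences at day +60 were -0.06, -0.15 and -0.11, and with quantile normalization PSMB6 (-0.16) and PSMB7 (-0.07) also changed sign.

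The 3 immunoproteasome subunits fell, and their median stayed below 0 from day +1 on with quantile normalization and with the brightness covariate as well. PSMB9 ran from 2.88 to 3.29 at day -30 and had the values 2.17, 2.28, 1.87 and 2.44 for animals 1 to 4 at day +60, with a difference of -0.88 (SE 0.24, adjusted p 0.00799 by limma). At day +120 its highest value was 2.45, and the difference reached -1.16 (adjusted p 0.00427). All 4 animals were lower and the groups did not overlap on either day. PSMB9 was called lower at every day from day +30 on, with -0.92 at day +30, -0.90 at day +180 and -0.84 at day +240. PSMB9 has 4 probes in the table, of which the dimmest did not follow the others (r = -0.234 with the probe used).

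PSMB10 was the member with the largest fall among the true subunits. Its values were 2.88, 3.01, 2.75 and 2.66 for animals 1 to 4 at day -30 and 1.04, 1.20, 1.28 and 1.90 at day +120. The highest value of day +120 lay below the lowest of day -30, and the difference was -1.47 (SE 0.27, adjusted p 0.00183 by limma). It was also called at day +60 (-1.04, adjusted p 0.00571) and at day +180 (adjusted p 0.0106). PSMB8 was called at day +30 alone, where its values of 2.93, 2.21, 2.05 and 2.64 all lay below the 3.44, 3.19, 3.74 and 3.19 of day -30 (-0.93, SE 0.23, adjusted p 0.0165). At day +120 its 4 values also lay below, with a difference of -0.78 that did not pass (adjusted p 0.0518).

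**Figure D2:**
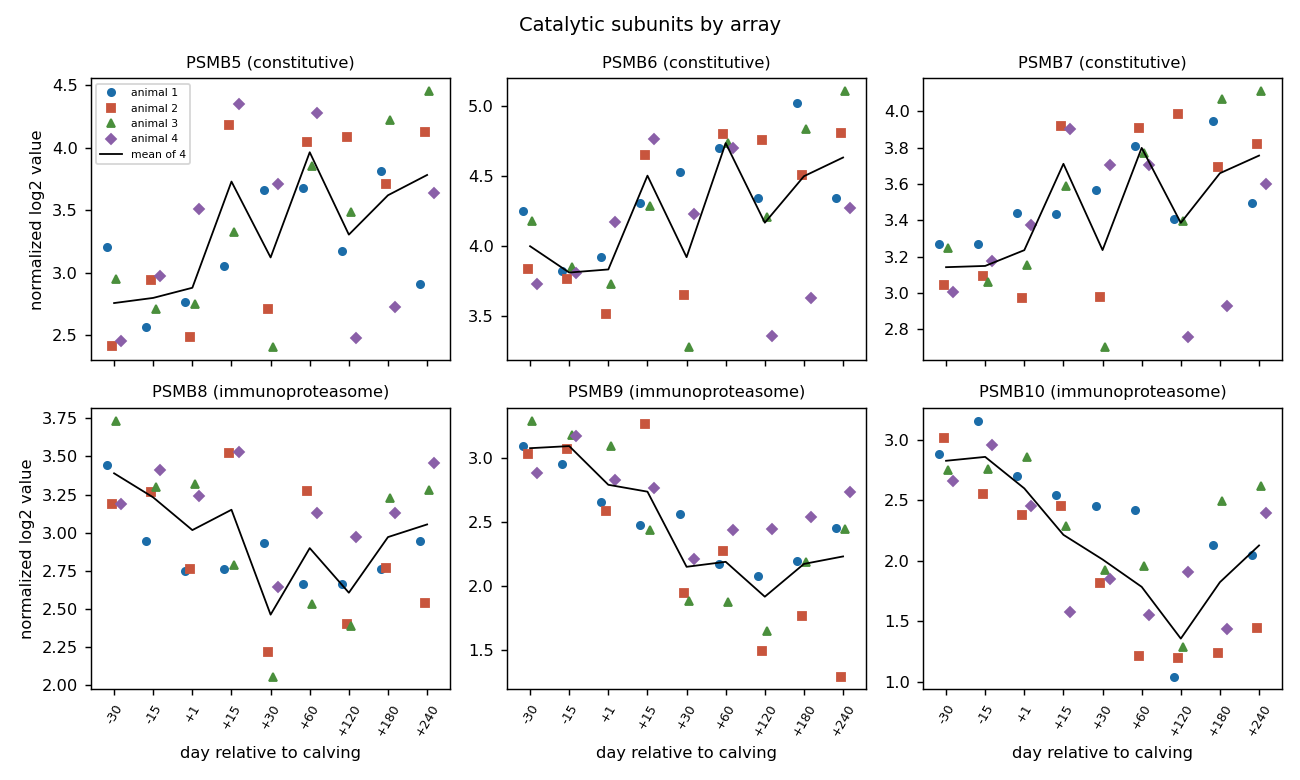
Each panel plots the normalized log2 value of 1 gene (vertical axis) by day (horizontal axis), with 1 symbol per animal and a line through the mean of the 4 arrays; the vertical axes differ between panels. PSMB9 falls from between 2.88 and 3.29 at day -30 to between 1.87 and 2.44 at day +60, while PSMB5, PSMB6 and PSMB7 peak at day +60.

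Quantile normalization made the falls larger: -1.43 for PSMB9 and -1.73 for PSMB10 at day +120. With the brightness covariate the calls of PSMB8 and PSMB9 at day +30, and of PSMB9 and PSMB10 at days +120 and +180, were kept, at -0.80 to -1.38. Those at day +60 were lost (adjusted p 0.101 for PSMB9 and 0.0724 for PSMB10), as was that of PSMB9 at day +240 (0.12). With the days of the scanner files PSMB9 at day +240 was 0.02 and PSMB8 at day +30 was not called (adjusted p 0.269). Without animal 3 the call of PSMB10 at day +120 was lost (-1.47, adjusted p 0.0701), and each call of PSMB8 and PSMB9 was lost without at least 1 animal at the same sign.

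T and NK cells express the immunoproteasome at high level. Of 8 of their markers, 5 (CD3D, CD2, CD8A, CD5 and NKG7) were called lower at day +60 and 0 at each of the other days. Of all features 29.2% were called at day +60, in either direction. The list medians were -0.85 at day +30, -1.26 at day +60, -0.60 at day +120 and -0.84 at day +180. The mean over the list ran from -0.19 to 0.24 at day -30 and from -1.73 to -0.57 at day +60. At days +120 and +180 animal 4 lay above every array of day -30 in this mean, while its immunoproteasome means (2.44 and 2.37) lay below them all. Of 5 markers of B and plasma cells 0 were called lower at any day, and the list mean was -1.49 at day -30, -1.74 at day +60 and -1.17 at day +120. Of 5 markers of macrophages and other leukocytes 1 (CD14) was called higher from day +1 on and 0 lower. Of all features 3.71% (day +120) to 29.2% (day +60) were called at these days. Of 6 neutrophil markers 4 were called higher at day +30 (S100A8 by 4.75) and 0 lower, where 6.38% of all features were called. In tissue RNA, fewer cells of a type and less RNA per cell cannot be told apart, and the part of leukocytes in the fall of the 3 subunits was not tested.

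To follow the inducible and the constitutive subunit of each site together, the log2 value of 1 was taken less that of the other within each array. The level of this difference depends on the probes and has no meaning as a ratio, but its change over days shows unequal change of the 2 genes. A shift that is equal for both probes of an array cancels in it, but an effect of brightness that differs between them does not. The pairs were not tested with the brightness covariate. The 3 pairs were compared with day -30 at 8 days by an exact permutation test of 4 arrays against 4 (two-sided, 24 tests, Benjamini-Hochberg), where the smallest p that 70 splits can give is 0.0286. This test does not use that the same 4 animals were sampled at each day. A paired test by sign flips over 4 animals cannot go below p 0.125, so that none could pass. In 19 of the 24 comparisons all 4 animals lay below their own value at day -30.

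In 14 of the 24 tests the 4 values all lay below the 4 of day -30, and these 14 reached that smallest p, with an adjusted p of 0.049. They were all 3 pairs at days +15, +30, +60 and +240, and PSMB10 less PSMB7 also at days +120 and +180. PSMB8 less PSMB5 was 0.24, 0.78, 0.78 and 0.73 in animals 1 to 4 at day -30 and -1.02, -0.77, -1.32 and -1.15 at day +60, a change of -1.70. PSMB9 less PSMB6 changed by -1.62 at day +60, from a mean of -0.92 ± 0.16 (SD, n = 4) to -2.55 ± 0.25. PSMB10 less PSMB7 changed by -1.70, from -0.32 ± 0.20 to -2.02 ± 0.55. Before lactation the pairs differed little from day -30: the changes at day -15 were -0.20, 0.21 and 0.03.

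At days +120 and +180 the first 2 pairs overlapped day -30 through animal 4 alone. PSMB8 less PSMB5 was -0.51, -1.69 and -1.09 in animals 1 to 3 at day +120 and 0.50 in animal 4, and at day +180 it was -1.05, -0.95 and -0.99 against 0.40. These are the arrays with little milk protein mRNA, and they are also the brightest arrays of their days. Without them, an alternative chosen after seeing the data, 18 of the 24 tests passed (adjusted p 0.0381). Quantile normalization left 13 tests with no overlap, which is too few for any to pass (smallest adjusted p 0.0527). With the days of the scanner files 16 passed, and with 3 animals the smallest possible p is 0.1.

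**Figure D3:**
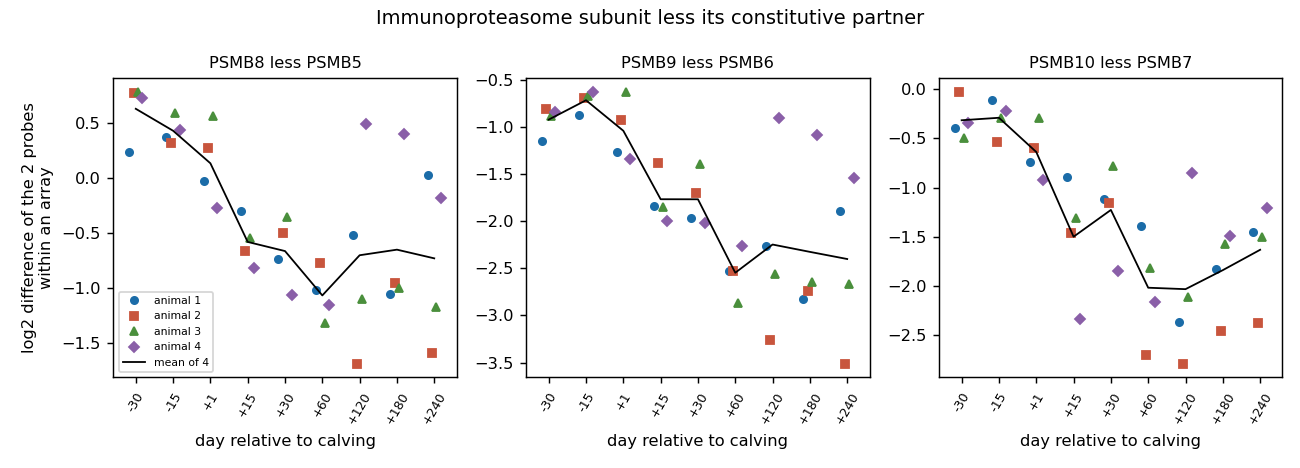
The vertical axis is the log2 value of the inducible subunit less that of its constitutive partner on the same array, by day, with 1 symbol per animal and a line through the mean. All 4 animals fall between day +1 and day +60 in each pair, and animal 4 returns toward the values of day -30 at days +120 and +180, to 0.50 and 0.40 in the first pair.

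The cap ATPases unfold substrates and open the gate of the core. All 6 had a mean above day -30 at days +15, +60, +120, +180 and +240, and 4 were called higher on at least 1 day (19.6% of all features). PSMC2 was called at day +15 (0.57), day +60 (0.63) and day +240 (0.59), PSMC6 at day +15 (0.77), PSMC5 at day +60 (0.73) and PSMC3 at day +180 (0.66). The second probe of PSMC3 differed there by -0.01. PSMC5 ran from 2.77 to 3.01 at day -30 and from 3.48 to 3.67 at day +60, with no overlap, but with the brightness covariate its difference was -0.10. PSMC1 and PSMC4 were called at no day.

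Of the 11 non-ATPase subunits of the cap, 6 were called higher on at least 1 day and 0 lower (19.6% and 23.9% of all features). PSMD1, the large scaffold of the base, was called at days +15, +60, +180 and +240, at 0.55 to 0.62, and at the last 2 of these days 1 of its 5 probes had the other sign. PSMD7, the partner of the deubiquitinating subunit, ran from 2.80 to 3.16 at day -30 and from 3.63 to 3.96 at day +60. It was called at day +60 (0.79, SE 0.21, adjusted p 0.00619 by limma), day +180 (0.62) and day +240 (0.70). The deubiquitinating subunit itself, PSMD14, passed the F test (adjusted p 0.0104) but no comparison with day -30. Its means were 0.40 at day -30, 1.11 at day +30 and 0.11 at day +180.

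PSMD11 and PSMD12, both structural subunits of the cap's lid, moved at different times. PSMD11 had the values 1.92, 1.20, 1.69 and 1.57 for animals 1 to 4 at day -30 and 3.28, 2.52, 2.61 and 2.02 at day +180. All 4 of the later values were above the earlier ones, with a difference of 1.01 (SE 0.23, adjusted p 0.00261 by limma), which stayed called with quantile normalization (0.70) and with the brightness covariate (0.79). PSMD12 was called early, at day +1 (0.62), day +15 (0.48) and day +30 (0.57), and at day +180 its difference was -0.01. PSMD12 was the one standard subunit called at day +1, and there too both alternatives kept the call (0.67 and 0.61). Over all 13 alternatives its call was kept in 8 at day +1, in 6 at day +15 and in 6 at day +30. PSMD2 (0.48) and PSMD3 (0.77) were called at day +180 alone, though with quantile normalization PSMD2 was called lower at day +15, and the second probe of PSMD3 differed by -0.38 at day +180. Of 22 calls of genes with more than 1 probe, 15 had all probes in 1 direction. PSMD4, PSMD6, PSMD8, PSMD13 and PSMD14 were called at no day.

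The activators and the inhibitor bind the ends of the core in place of the cap. PSME1 and PSME2, which form the interferon-inducible ring, were called at no day with the deposited values. With quantile normalization PSME1 was called lower at every day from day +15 on and PSME2 at those days but day +240, and with the brightness covariate PSME1 was called lower at days +30, +120 and +180. PSME1 was between -0.46 and 0.13 from day -30, and PSME2 between -0.14 and 0.36. PSME3, the nuclear activator, passed the F test (adjusted p 0.0412) with its largest difference, 0.57, at day +15 (adjusted p 0.0634). PSME4, an activator known from chromatin and the testis, was called at day +60 (0.47, adjusted p 0.0451), with values of 0.60 to 0.69 against -0.06 to 0.42. PSMF1, the inhibitor, had differences between -0.19 and 0.39 and was called at no day.

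Of the 7 assembly chaperones 1 was called. PSMD9, which helps build the base of the cap, fell from 0.96, 0.64, 0.58 and 0.64 in animals 1 to 4 at day -30 to 0.28, -0.37, 0.07 and -0.34 at day +240. The difference was -0.79 (SE 0.16, adjusted p 0.00175 by limma), the groups did not overlap, and the calls at days +15 (-0.59), +30 (-0.53) and +60 (-0.51) had the same sign. At day +240 the call was kept with quantile normalization (-0.85) and with the brightness covariate (-0.66) but not without animal 2 (-0.72, adjusted p 0.0622). The related PSMD10 and PSMD5 and the core chaperones PSMG1, PSMG2, PSMG3 and PSMG4 were called at no day, although PSMG4 passed the F test (adjusted p 0.0152).

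PSMB11 and PSMC3IP had the largest differences of all 48 symbols. PSMB11, the catalytic subunit of thymic cortical epithelium, was above background on 0 of 4 arrays at days -30 and -15, and on 4 of 4 at days +15 and +60. Its normalized value lay above the background of the day -30 arrays by 2.75 at day +15 and by 3.1 at day +60. The 75th percentile, to which values are scaled, was 4854 to 5752 units at day -30. It was 1029 to 2114 units at day +15 and 1278 to 2512 at day +60. Near background this scaling raises the value on a dim array, so that a fold change of the RNA cannot be read from it. PSMB11 passed the filter through the days on which it is bright, so that a difference from day -30 was to be found. With the brightness covariate the difference was lost at both days (adjusted p 0.931 at day +15 and 0.97 at day +60 by limma). On those 8 arrays its values ran from -5.88 to -2.52, far below the 75th percentile of the arrays.

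PSMC3IP lies at chr19:43291187-43291340, where its probe spans 154 bases of the minus strand: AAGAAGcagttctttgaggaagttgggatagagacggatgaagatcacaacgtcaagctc. The capitals mark the longest run shared with the probe of PSMC3, whose name it carries. PSMC3IP fell from -1.17, -1.16, -0.59 and -1.10 in animals 1 to 4 at day -30 to -3.21, -3.39, -3.97 and -3.09 at day +1, while PSMC3 differed by -0.07. It was called at each of the 7 days from day +1 on, at -1.56 to -3.02, and at day +180 the adjusted p was 3.81e-05. All 4 later values lay below the earlier ones at each of these days. Leaving out animal 3 ended the calls at days +1, +30, +120 and +240, at the same sign (adjusted p 0.0559 at day +1). Markers of dividing cells were lower too: CDK1 differed from day -30 by -1.68 at day +60 and -2.62 at day +180, and KIF20A by -4.46 and -3.80, all called. The mean over the marker list lay below that of day -30 at each of the 7 days, but its course differed from that of PSMC3IP. At days +15, +30, +60 and +120 the list mean was -3.23, -3.68, -5.49 and -5.25. The mean of PSMC3IP was -3.30, -2.81, -3.52 and -2.56 at these days. At day +1 the list had 0 of 4 markers called. The part of dividing cells in the fall of PSMC3IP was not tested.

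The 2 arrays of animal 4 at days +120 and +180 were left out in an alternative chosen after seeing the data. On them the mean of the 14 core genes was 2.46 and 2.46, below all the other 34 arrays, and that of the 17 cap genes 1.88 and 1.94, where the other animals at days +120 and +180 lay between 2.39 and 2.80. Their T and NK cell means, 0.84 and 0.76, were the highest of the 36 arrays. These 2 were also the brightest arrays of their days, at 6450 and 4357 units. The other animals lay between 1178 and 2619 units at day +120 and between 1529 and 3118 at day +180. Leaving them out thus also removes the brightest array of each day, and the part of brightness was not tested. Without these 2 arrays 9 members were called at day +120 in place of 3 (13.1% of all features), 23 at day +180 in place of 10 (27.7%) and 17 at day +240 in place of 8 (19.5%). Each of the 56 calls against day -30 was kept without them. The core median rose from 0.17 to 0.37 at day +120 and from 0.41 to 0.64 at day +180.

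**Figure D4:**
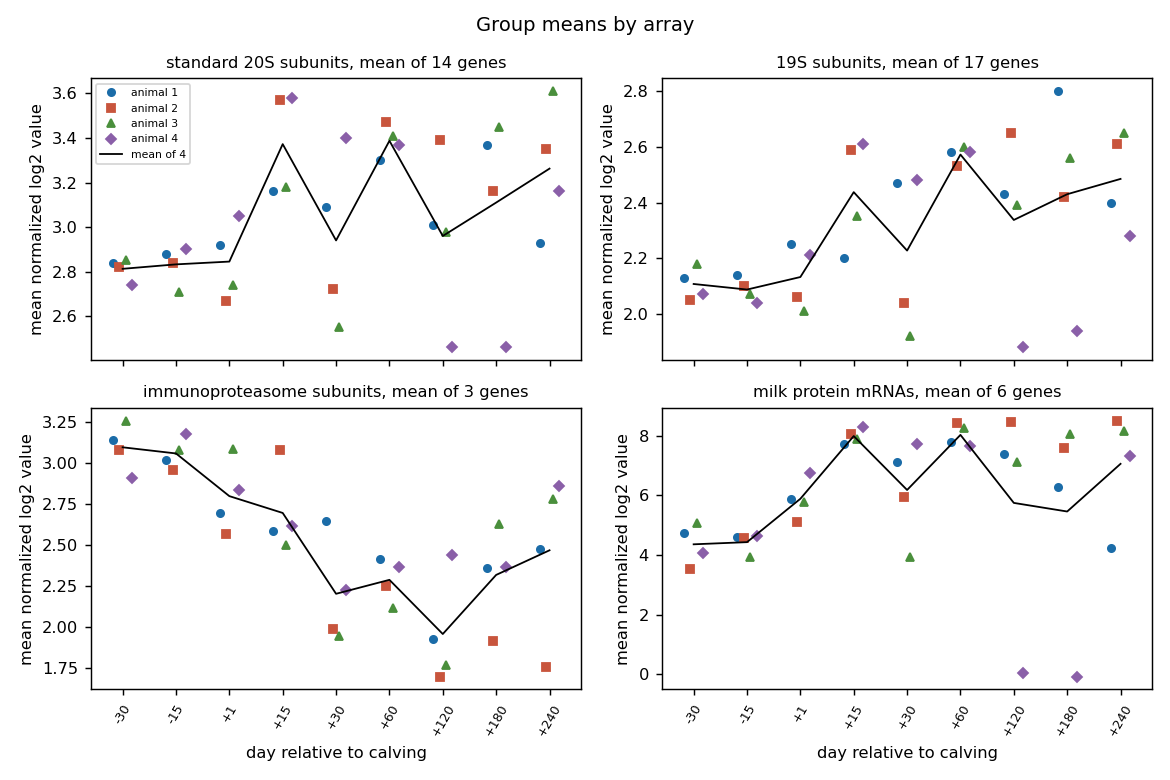
Each panel shows the mean normalized log2 value over a group of genes on each array, by day, with 1 symbol per animal and a line through the mean of 4. Animal 4 at days +120 and +180 is lowest in the core genes (2.46 on both arrays) and near 0 for the milk protein genes, but not lowest for the immunoproteasome genes.

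Between neighbouring days limma called 0 of the 48 members in all 7 comparisons. Of all features it called 1.77% at day +1 against day -15, 0.32% at day +15 against day +1, 0.0145% at day +30 against day +15, 0.887% at day +60 against day +30, 0.867% at day +120 against day +60, 0.354% at day +180 against day +120 and 0.77% at day +240 against day +180. At an unadjusted p under 0.05 there were 21 members higher and 0 lower at day +15 against day +1 (14% and 6.21% of all features). At day +30 against day +15 there were 0 and 11 (2.06% and 5.1%), at day +60 against day +30 there were 18 and 0 (6.87% and 9.55%), and at day +120 against day +60 there were 1 and 11 (12.2% and 6.64%). In the other 3 steps 2, 6 and 3 members had such a p. The medians of the members in these 4 steps were 0.37, -0.28, 0.36 and -0.29. With the deposited values most members thus differed one way in each step and the other way in the next, and no single gene passed. Array brightness also varied between these days. It was 2084 to 5355 units at day +1, 1029 to 2114 at day +15 and 1402 to 5698 at day +30. At days +60 and +120 it was 1278 to 2512 and 1178 to 6450 units. The unadjusted counts were made for the deposited values alone, and the part of brightness in these steps was not tested. Neighbouring steps share the arrays of a day, so that a high day gives a rise and then a fall.

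Of 45 other genes of the ubiquitin system, antigen processing and interferon signalling, listed by role, 40 were in the test. Of these 20 were called higher on at least 1 day and 4 lower with the deposited values (19.6% and 23.9% of all features). The 24 called became 17 with quantile normalization and 17 with the brightness covariate, where the directions were not counted. There were 17 called at day +60 (29.2% of all features) and 9 at day +15 (17.7%). Some of those with the largest changes are named, and NFE2L1 and POMP were added after their values were seen.

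NFE2L1, the transcription factor that induces the standard subunits when proteasome activity is short, was called at days +15 (0.58), +60 (0.84), +180 (0.96) and +240 (0.94). At day +180 it ran from 2.84 to 3.77 against 2.26 to 2.69 at day -30, and it stayed called there with quantile normalization (0.54) and with the brightness covariate (0.53). The calls at days +15 and +60 were lost in both of these alternatives, and that at day +240 with the covariate (0.36). POMP, the maturation factor of the core, was called at the same 4 days, at 0.56 to 0.81, and in neither of these alternatives.

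Of the genes that work with the immunoproteasome, TAP1, the peptide transporter encoded beside PSMB9, was called lower at every day from day +30 on, at -0.86 to -1.11. It ran from 0.94 to 1.25 at day -30 and from -0.20 to 0.52 at day +120, with no overlap (-1.09, SE 0.23, adjusted p 0.00394 by limma). Quantile normalization (-1.19) and the brightness covariate (-1.03) kept that call. IRF1, which acts on the promoters of these genes, was called lower at day +60 (-1.31). Quantile normalization kept that call (-1.49), and with the brightness covariate the difference was -0.48 and did not pass.

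The kinase JAK1 (1.60 at day +60) and B2M, the light chain of MHC class I (1.09 at day +60), were called higher. Quantile normalization kept JAK1 (0.96), and B2M was then -0.12. With the brightness covariate JAK1 was 0.20 and B2M -0.12, and B2M was called lower at days +30 (-0.46), +120 (-0.43) and +180 (-0.37). At day +180 quantile normalization also called it lower (-0.37).

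**Figure D5:**
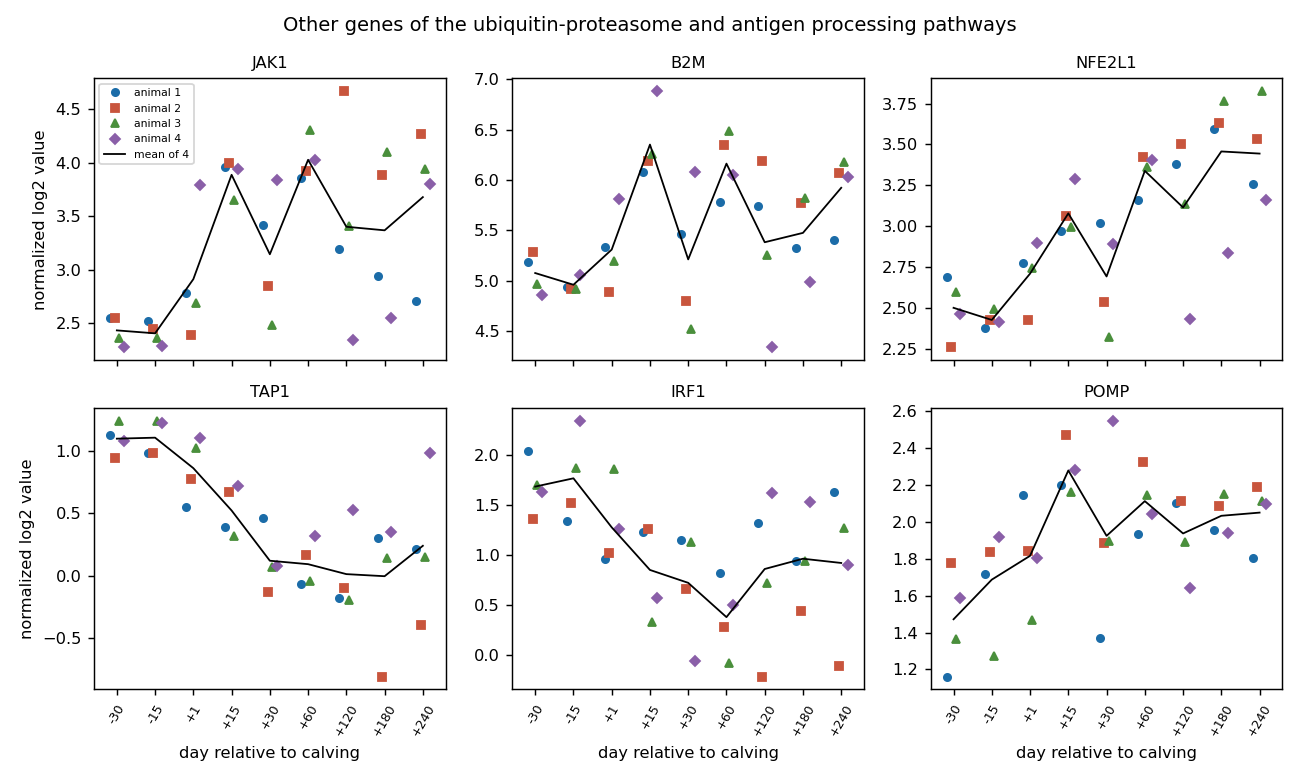
Panels give the normalized log2 value of 6 genes by day, with 1 symbol per animal and a line through the mean of 4 arrays; the vertical axes differ between panels. TAP1 falls from between 0.94 and 1.25 at day -30 to between -0.20 and 0.52 at day +120, and NFE2L1 rises from between 2.26 and 2.69 at day -30 to between 2.84 and 3.77 at day +180.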

How the data were processed

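Members and gene lists were chosen with earlier results of these data known. The authors deposited a table of log2 values in which 0 is the 75th percentile of each array; GeneSpring 12 made it and JMP Genomics 7 tested it, per the labels. They also deposited 1 scanner file per array, whose signals are intensities written by Feature Extraction 10.7.3.1, per the file headers, beside marks (another unit) of 0 or 1 for spots above background. Each table column was matched to the 1 scanner file whose values it equals (largest difference 1.8e-06). That file is deposited under another sample, and the scanner record is the table's displaced by 3 arrays along the slides. The column medians lie between -1.70 and -1.34.

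Symbols and probe positions come from the scanner files. All 48 symbols are in the RefSeq yak gene table, which was used for names only. A feature had to be well above background on 3 or more arrays of some day, which 2 of 20643 were not. Days were fitted with limma 3.58.1 (R 4.3.3, statmod 1.5.0) with the animal as a random block (consensus correlation 0.0533), two-sided, over 15 comparisons and an F test. The pairing comes from the labels; deviations from the day means had a mean r of 0.151 within and -0.0505 between animals. Nothing says that the biopsies were processed apart, so p-values measure the spread between these arrays.

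Named with values were the catalytic subunits, PSME1, PSME2, PSME3, PSMF1 and PSMC3IP, the 10 smallest F test p-values, and the 3 largest changes in each direction per comparison; the others are examples of their role, chosen after their values were seen. On simulated data for day +60 the code recovered 34 of 100 features changed by 1 and 78 of 100 changed by 2, and called 3 unchanged ones. The simulation had no animal effect, and a far smaller share of its 20641 features changed than the 29.2% called at day +60. It checks the code and does not give the power of the tests on the data. Alternatives were quantile normalization, normexp (offset 50), the mean of probes, no filter, brightness as a covariate, the scanner record of days, no block, 2 days only, and each animal left out. Python 3.11.15, numpy 2.4.6, pandas 2.3.3 and matplotlib 3.10.9 were used. Some of the other pathway genes are not reported here.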

Additional observations from a re-analysis of the deposited data

Results flagged for a closer look

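Among 26 members named by rule, 234 groups of 4 arrays of 1 day were checked for an array that lies far from the other 3 by Dixon's rule, and 13 had one; chance alone marks about 1 group in 20. PSMB10 was 2.45 in animal 1 at day +30, where the others lay between 1.82 and 1.92. PSME2 was 3.00 in animal 4 at day -30, PSMC3IP was -0.59 in animal 3 at day -30, and PSMD9 was 0.96 in animal 1 at day -30. These 3 lie in the reference day. PSME3 was -0.13 in animal 3 at day +240, against -0.75 to -0.71. PSMD11 was 1.37 in animal 2 at day +1. PSMD2 was 2.09 in animal 4 at day -15 and 2.66 in animal 2 at day +15. PSMD14 was 1.73 in animal 4 at day +30 and 0.50 in animal 2 at day +60. PSME4 was -0.28 in animal 1 at day +180, against 0.53 to 0.65. PSMA6 was 2.89 and PSMA2 1.17 in animal 3 at day -15. The 13 values come from all 4 animals.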

How the results depend on the processing

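The sign and the side of the threshold were kept in 56 of the 56 called differences from day -30 with no filter, 43 with the mean of probes, 38 with the 2 days alone, 32 with normexp, 27 with quantile normalization, 16 with the brightness covariate and 12 with the scanner record of days. The cause of the losses was not tested. Brightness and day overlap in part, so that the covariate also takes up differences between days.

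Counts of members called are given with the share of all features called in brackets. They numbered 26 in the F test (42.2%), 15 with normexp (21.1%), 9 with the scanner days (21.7%) and 14 with the brightness covariate (40.2%). At day +1 (2 called, 6.23%) there were 4 with quantile normalization (8.31%), 0 with the scanner days (0.911%) and 1 with the 2 days alone (17.7%). At day +15 (12, 17.7%) there were 0 with the scanner days (1.17%) and 1 with the brightness covariate (3.45%). At day +30 (5, 6.38%) there were 10 with quantile normalization (10.4%), 3 with normexp (2.73%) and 12 with the scanner days (19.4%). At day +60 (16, 29.2%) there were 10 with normexp (22.5%), 4 with the scanner days (8.43%) and 1 with the brightness covariate (13.7%). At day +120 (3, 3.71%) there were 7 with quantile normalization (6.19%), 7 with the scanner days (10.4%) and 5 with the brightness covariate (9.78%). At day +180 (10, 17.6%) there were 4 with normexp (6.44%) and 3 with the scanner days (7.5%). There were 6 with the brightness covariate (27.2%) and 4 with the 2 days alone (10.6%). At day +240 (8, 13.8%) there were 4 with the mean of probes (12.2%), 3 with normexp (5.17%) and 0 with the scanner days (0%). There were 2 with the brightness covariate (9.05%) and 3 with the 2 days alone (8.74%). Without the 2 arrays of animal 4, an alternative chosen after seeing the data, there were 9, 23 and 17 at days +120, +180 and +240 (13.1%, 27.7% and 19.5%). Between neighbouring days 0 were called in each. Day +1 against day -15 gave 2 with quantile normalization (3.29%) and 1 with the brightness covariate (6.39%). It gave 2 with the 2 days alone (16.8%) and 1 without the 2 arrays (3.29%). Day +15 against day +1 gave 10 with the 2 days alone (15.5%), and day +60 against day +30 gave 2 without the 2 arrays (1.88%). Day +180 against day +120 gave 1 with the brightness covariate (4.01%), and day +240 against day +180 gave 2 with the scanner days (4.2%). The other ubiquitin-proteasome genes numbered 22 in the F test, 14 with normexp, 10 with the scanner days and 14 with the brightness covariate. The shares of all features in the F test are those given for the members. Of the 24 pair tests 14 passed and 0 with quantile normalization.

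Without the animal as a block (the pairing), 46 of the 56 calls were kept. The F test then called 24 members (36.8% of all features), and day +240 had 5 in place of 8 (11.8%).

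Signs changed with the brightness covariate for PSMB11 at day +15 (-0.14) and, at day +60, for PSMC5 (-0.10), PSMB7 (-0.11), PSMB5 (-0.057), PSMB6 (-0.15) and PSMA7 (-0.018). With quantile normalization they changed for PSMA6 at day +15 (-0.0062) and day +240 (-0.015), and for PSMB7 (-0.068) and PSMB6 (-0.16) at day +60. With the scanner days they changed for PSME4 at day +60 (-0.15), PSMB9 at day +240 (0.019) and PSMD1 at day +240 (-0.0025).

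Leaving out 1 animal in turn gave 2 to 22 members in the F test (10.6% to 31.4% of all features). It gave 0 to 2 at day +1 (0.736% to 4.28%), 2 to 3 at day +15 (2.94% to 7.68%) and 0 to 2 at day +30 (0.543% to 2.64%). There were 6 to 13 at day +60 (13% to 21.1%) and 0 to 5 at day +120 (0.179% to 6.83%). There were 2 to 13 at day +180 (6.39% to 17.9%) and 1 to 9 at day +240 (1.2% to 14.2%). Day +60 against day +30 gave 0 to 2 (0.116% to 2.58%), and the other neighbouring steps gave 0. Of the other genes it gave 3 to 18 in the F test and 5 to 21 (24 with all animals) on at least 1 day. The slide as a block was not run, since each slide holds 1 day, and no pair test with 3 animals can go below p 0.1. Dim probes such as PSMB11 lie near background, where the signal limits the precision.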
